A study of Mus musculus with 36 samples.

Results

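Sbp, Sbpl, Pbsn, Msmb, Tgm4 and 9530002B09Rik encode proteins that the mouse prostate secretes, and their RNA was followed through FOXA1 induction in prostate organoids. They are 6 of the 45232 genes counted, taken as a fixed list by matching Ensembl identifiers to symbols. The list was chosen by the levels of these genes in the same libraries (Sbp and its relatives after FOXA1 induction, and the silent ones), so those levels are described here and not tested. Gene expression was measured by polyadenylated-RNA sequencing in 36 libraries of primary mouse prostate organoids, which are epithelial structures grown in culture from prostate cells. Mouse strain, sex and age are not given in the sources used here.

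All lines carried the pCW vector, from which doxycycline induces the insert, and cells positive for dsRED were sorted at the start of the assay. The 4 constructs are the empty vehicle (EV), wild type FOXA1 (WT), Foxa1 FE255del and Foxa1 R219S, each collected at days 0, 1 and 11 with 3 replicates in each of the 12 groups. Doxycycline was given at 500 ng/mL and induces a FOXA1-2A-DsRED fusion. Only the names in the deposited data say that day 0 was without doxycycline. Replicates were seeded in triplicate from cells infected with the same construct, so the spread between them does not cover a new infection or another animal.

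FOXA1 is a forkhead pioneer factor that opens chromatin in prostate epithelium. Secretory luminal cells of the prostate lobes make large amounts of a few androgen-dependent proteins, and the mixture differs between lobes. Spermine-binding protein is a major product of the ventral lobe in mice. Probasin, a lipocalin encoded by Pbsn, is known mainly because its promoter is used to drive transgenes in prostate epithelium.

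Sbp lies on mm10 chromosome 17 from 23941672 to 23945607 on the plus strand in the GENCODE annotation, and Sbpl from 23953084 to 23955274 on the minus strand. The 250 bases before the second of 3 RefSeq starts of Sbp and before the single RefSeq start of Sbpl are shown because the pair moved together and were the abundant members. The second Sbp start was taken because its window alone among the 3 holds a match to a forkhead motif searched. Sequences are from RefSeq on GRCm38.p6, the same assembly as mm10. Capitals mark the 1 match found to the forkhead motif TGTTTGC, which lies on the minus strand and begins at position -48 from the start. The windows are chr17:23941428-23941677 on the plus strand and chr17:23955274-23955523 on the minus strand.
Sbp: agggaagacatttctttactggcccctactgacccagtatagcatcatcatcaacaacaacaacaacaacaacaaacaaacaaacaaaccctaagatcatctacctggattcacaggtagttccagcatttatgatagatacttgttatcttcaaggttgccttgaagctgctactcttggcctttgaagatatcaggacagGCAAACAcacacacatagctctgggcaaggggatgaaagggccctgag
Sbpl: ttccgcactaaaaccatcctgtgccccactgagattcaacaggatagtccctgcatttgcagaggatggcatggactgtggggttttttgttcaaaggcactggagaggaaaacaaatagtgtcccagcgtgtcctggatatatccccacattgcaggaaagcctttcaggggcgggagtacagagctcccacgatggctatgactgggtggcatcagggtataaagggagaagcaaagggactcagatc

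Both strands of these windows, and those of Pbsn, Tgm4 and 9530002B09Rik, were searched for 4 forkhead motifs. Other motifs searched are not reported here. TGTTTGC occurred in 4.3% of 32817 promoter windows of the same length. The Sbp window was chosen for its match, so this share does not give the odds of a match over the whole search. The forkhead motif TGTTTAC occurred in 3.16% of all windows and in none of the windows of these genes. The same held for TATTTAC, which 2.73% of all windows contain. The motif TATTTGC, in 2.5% of all windows, was likewise without a match here. A match describes letters in these windows, not a bound site. Msmb had no window in the table.

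Library totals ran from 61476938 to 102385337 counts, and levels are given as CPM, the counts per 1000000 counts of the scaled library size. Luminal markers, as the labelled tissue requires, were present: 7 or 8 of 8 luminal markers (Krt8, Krt18 and others) reached 1 CPM in every group. They summed at day 1 to 5495 CPM in R219S, 4059 in FE255del, 4005 in EV and 3652 in WT. Against EV at day 1, 2 rose and 5 fell in both WT and FE255del, and 3 rose and 5 fell in R219S. Krt8 fell in R219S (log2 -0.757), FE255del (-1.133) and WT (-1.862). Cd24a rose (2.374, 0.633 and 0.7252 in the same order), and gave 3501 CPM of the R219S sum. Basal markers were present too, summed at day 1 to 3145 CPM in WT, 1829 in FE255del, 5361 in R219S and 8784 in EV. Foxa1 itself was at 226.7 ± 4.99 CPM (SD, n = 3) in EV at day 1, at 414.3 ± 4.69 in WT, 320.2 ± 27.1 in FE255del and 308.6 ± 5.11 in R219S, with no EV library as high as any of the others. At day 0 Foxa1 already ran higher in the WT line, from 252.9 to 258.9 CPM, than in EV, from 227.2 to 237.1. The FE255del and R219S lines overlapped with EV at day 0. By day 11 the Foxa1 level was 268.6 ± 14.3 CPM in WT, 295.0 ± 25.7 in FE255del, 268.5 ± 29.6 in R219S and 230.2 ± 12.2 in EV. Whether the construct's transcript was counted at Foxa1 is not given in the sources used here.

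Of the 6 genes, Sbp and Sbpl were near silent without an induced FOXA1 and high with it. 9530002B09Rik reached a trace level in WT and FE255del, Tgm4 was at a trace level in every construct, and Pbsn and Msmb had 0 counts in all 36 libraries. Sbp, Sbpl, Tgm4 and 9530002B09Rik passed the filter on low counts, so 4 of 6 were in the fitted table. Sbp gathered 133555 counts over all libraries, Sbpl 42614, Tgm4 352 and 9530002B09Rik 147. 

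At day 1, all WT libraries stood above all EV libraries for 3 of the 6 (Sbp, Sbpl and 9530002B09Rik). Of all 18176 genes tested, 60.5% were called between WT and EV at day 1 and 29.6% were called higher. The same 3 stood above EV in FE255del, where 53.2% of all genes were called and 25.5% called higher. In R219S only Sbp and Sbpl did, where 48.5% were called and 23.2% called higher. At day 11 the same members stood above EV in each construct, beside 21.0%, 22.6% and 17.7% of all genes called higher in WT, FE255del and R219S. With total-count scaling in place of TMM, 60.8% of the calls in WT and 61.0% of those in FE255del at day 1 were higher (49.0% and 48.0% with TMM), as were 42.6% in R219S at day 11 (55.2%). Nothing is read from these shares, since the genes were chosen for their levels and overlap of libraries is a different measure from a call.

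Between the constructs, 3 of the 6 lay lower in R219S than in WT without overlap at day 1 and again at day 11, beside 29.1% and 24.1% of all genes called lower. At day 11 total-count scaling moved the share of higher calls in that comparison from 50.7% to 36.7%. None of the 6 separated FE255del from WT at day 1 (41.7% of all genes called), and Sbpl and 9530002B09Rik lay lower in FE255del at day 11 (7.92% called lower). From day 1 to day 11, Sbp and Sbpl were lower without overlap in each FOXA1 construct, beside 28.3%, 26.6% and 29.8% of all genes called lower in WT, FE255del and R219S. Before induction 9530002B09Rik stood above EV in the WT line, at only 2 to 4 counts a library (9.90% of all genes called higher). Tgm4 stood below EV in the FE255del and R219S lines (9.72% and 6.92% called lower). Members were counted here by overlap of libraries, and all genes by edgeR calls. These are unlike measures, so nothing is read from the shares.

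Sbp, which encodes the spermine-binding protein, was near silent without an induced FOXA1. Its raw counts at day 0 were 4, 2 and 0 in EV, 0, 1 and 4 in WT, 2, 4 and 2 in FE255del and 3, 2 and 6 in R219S. These groups overlapped, and no difference between lines before induction was detectable at this depth. EV had 0, 4 and 0 counts at day 1 and 0, 0 and 0 at day 11, where the floor is 3 counts over the group.

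At day 1 Sbp had 19825, 20045 and 21027 counts in WT, and 18646, 19395 and 17504 in FE255del. In R219S the counts were 1421, 1493 and 1491. On the CPM scale these are 246.8, 258.9 and 264.4 in WT, 263.2, 255.5 and 253.7 in FE255del, and 20.1, 21.0 and 20.3 in R219S. Every library of the 3 FOXA1 constructs lay far above every EV library, and R219S lay below both other constructs with no overlap. Against the 4 counts of EV at day 1, the ratio of summed scaled counts was 13130 in WT (95% exact conditional interval 5128 to 48190), 13170 in FE255del (5144 to 48340) and 1047 in R219S (408.5 to 3844). These intervals cover counting error only. All 4 EV counts lie in replicate 2. Without that library EV is at 0 counts and gives only a bound.

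FE255del and WT had overlapping Sbp levels at day 1, at 257.5 ± 5.05 and 256.7 ± 9.02 CPM (SD, n = 3), with a log2 difference of 0.005 ± 0.034 (SE over libraries). Log2 differences here compare mean log2 CPM over libraries, while folds are ratios of summed scaled counts. R219S averaged 20.5 ± 0.519 CPM, 12.54-fold below WT (log2 difference -3.65 ± 0.036) and 12.58-fold below FE255del. The spread among the 3 R219S libraries was small beside that gap.

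After 11 days Sbp was lower than at day 1 in all 3 FOXA1 constructs but still far above EV. WT libraries held 3212, 1517 and 1992 counts, FE255del 1514, 1738 and 1411, and R219S 328, 446 and 516. In CPM these are 36.8, 22.6 and 28.7 in WT, 19.3, 23.4 and 19.7 in FE255del, and 4.39, 6.43 and 7.12 in R219S. WT and FE255del overlapped, and R219S lay below both. Against the 0 counts of EV at day 11, set at a floor of 3 counts over the group, Sbp was at least 2137-fold higher in WT, 1480-fold in FE255del and 424.1-fold in R219S. The WT mean was 29.4 ± 7.15 CPM and the FE255del mean 20.8 ± 2.27, a log2 difference of -0.47 ± 0.22. R219S was 5.039-fold below WT (log2 difference -2.30 ± 0.29).

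Between day 1 and day 11 the Sbp level was 8.549-fold lower in WT (log2 difference -3.16 ± 0.21), 12.38-fold lower in FE255del (-3.63 ± 0.09) and 3.434-fold lower in R219S (-1.80 ± 0.21). In each construct every day 11 library lay below every day 1 library. The order of the Sbp group means was FE255del day 1, WT day 1, WT day 11, FE255del day 11, R219S day 1, R219S day 11, then the 6 groups at or under 0.0541 CPM. Libraries overlapped between the first pair, and between WT day 11, FE255del day 11 and R219S day 1 as neighbours. R219S at day 11 did not overlap with the groups on either side in that order.

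**Figure D1:**
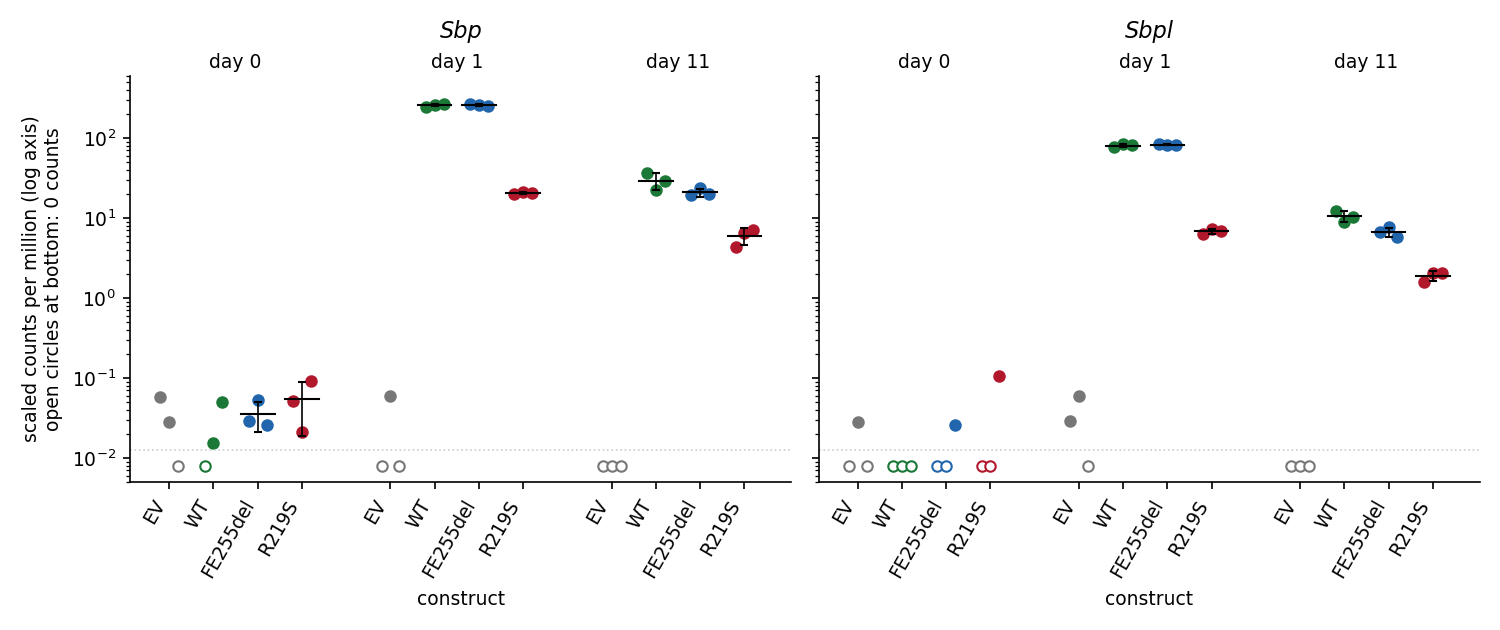
Level of Sbp (left) and Sbpl (right) in each of 36 libraries, in CPM on a log axis, by construct and day. Points are libraries, bars are the mean and SD of groups in which no library had 0 counts, and open circles under the dotted line are libraries with 0 counts. WT and FE255del lie together near 257 CPM for Sbp at day 1, and R219S near 20.5.

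Sbpl, the neighbouring gene for a spermine-binding protein-like product, was high in the same groups as Sbp at a lower level. At day 0 it had 0, 2 and 0 counts in EV, none in the 3 WT libraries, 0, 0 and 2 in FE255del and 0, 0 and 7 in R219S. EV held 2, 4 and 0 counts at day 1 and none at day 11. At day 1 it reached 6170, 6434 and 6463 counts in WT, 5905, 6199 and 5638 in FE255del, and 448, 522 and 502 in R219S. All 9 libraries lay above every EV library, and the R219S libraries lay below the other 6.

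The Sbpl means at day 1 were 80.4 ± 3.24 CPM in WT, 82.2 ± 0.961 in FE255del and 6.84 ± 0.518 in R219S (SD, n = 3). The ratio to EV was 2741 in WT (95% interval 1259 to 7469), 2805 in FE255del (1288 to 7644) and 233.2 in R219S (106.9 to 636.5). These intervals, too, cover counting error only. R219S was 11.75-fold below WT (log2 difference -3.56 ± 0.072), while FE255del and WT overlapped (0.034 ± 0.035). Without EV replicate 2 at day 1, which holds 4 of the 6 EV counts, the log2 ratio of Sbpl to EV went from 11.4 to 12.4 in WT, and from 7.86 to 8.87 in R219S.

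At day 11 the Sbpl counts were 1080, 605 and 718 in WT, 521, 564 and 418 in FE255del, and 118, 142 and 150 in R219S. Here the 3 constructs did not overlap in CPM: WT ran from 8.999 to 12.4, FE255del from 5.83 to 7.60 and R219S from 1.58 to 2.07. FE255del was 1.602-fold below WT (log2 difference -0.66 ± 0.17) and R219S 5.669-fold below it (-2.48 ± 0.18). Against EV at 0 counts, Sbpl was at least 764-fold higher in WT, 477-fold in FE255del and 134.8-fold in R219S. From day 1 to day 11 it was lower by 7.486-fold in WT, 12.27-fold in FE255del and 3.611-fold in R219S.

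The ratio between the paired genes varied little beside the differences in their levels. Sbpl counts per 100 Sbp counts at day 1 were 31.1, 32.1 and 30.7 in WT, 31.7, 32.0 and 32.2 in FE255del, and 31.5, 35.0 and 33.7 in R219S. At day 11 they were 33.6, 39.9 and 36.04 in WT, 34.4, 32.4 and 29.6 in FE255del, and 35.98, 31.8 and 29.1 in R219S. The highest group mean, 36.5 ± 3.16 in WT at day 11, did not overlap with WT at day 1 (31.3 ± 0.702), and the other groups ranged from 31.95 to 33.4. Per kilobase of annotated exon the level of Sbpl was 52.2 to 60.8 per 100 of Sbp in these 6 groups. Of the 50-base windows of the longest Sbpl transcript (878 bases), 323 of 829 (39%) also occur in an Sbp transcript, and the longest identical run is 159 bases. How reads were divided between the genes is not given in the sources used here, so their separate levels are uncertain.

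**Figure D2:**
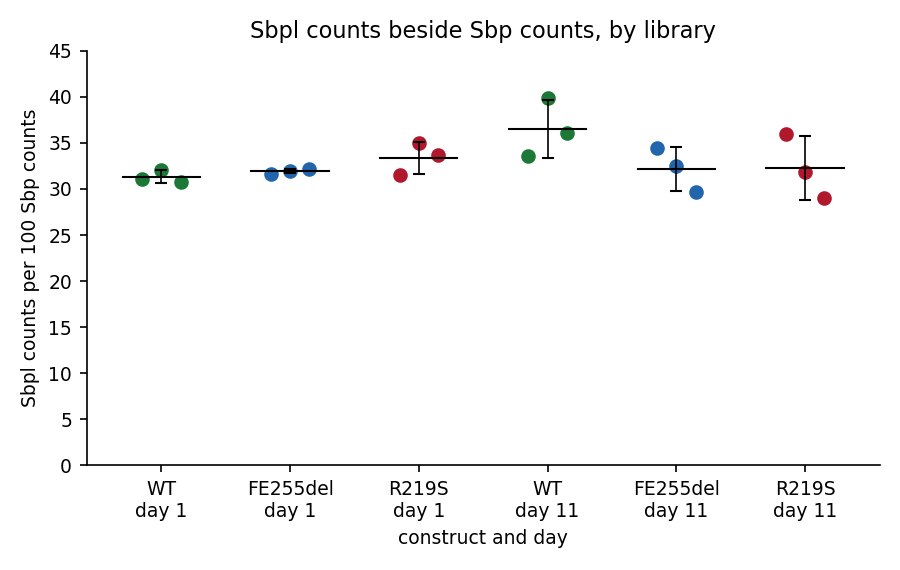
Sbpl counts per 100 Sbp counts in each library of the 6 groups with induced FOXA1, on a linear axis from 0. Points are libraries, and bars are the mean and SD of 3. Group means lie between 31.3 and 36.5.

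9530002B09Rik, which RefSeq also lists as Vpp1, had reads after induction in WT and FE255del only, at a trace level. It lies on chromosome 4 from 122689275 to 122705129. At day 1 it held 23, 18 and 16 counts in WT, 8, 2 and 14 in FE255del, and none in the 3 EV and 3 R219S libraries. At day 11 it held 20, 10 and 8 counts in WT, 6, 8 and 4 in FE255del, and again none in EV or R219S. All WT and FE255del libraries thus lay above all EV and R219S libraries on both days. Unlike Sbp and Sbpl, it had no read in R219S after induction.

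The 9530002B09Rik mean at day 1 was 0.240 ± 0.043 CPM in WT and 0.114 ± 0.088 in FE255del (SD, n = 3). Against EV at a floor of 3 counts over the group it was at least 16.39-fold higher in WT and at least 7.588-fold higher in FE255del at day 1. At day 11 these bounds were 12.08 and 5.713. R219S was at least 17.24-fold below WT at day 1 and at least 12.25-fold below it at day 11. FE255del was 2.159-fold below WT at day 1 (95% interval of FE255del over WT 0.275 to 0.758), with overlapping libraries, and 2.115-fold below it at day 11, without overlap. The interval covers counting error only and not the spread between libraries. The levels at day 11 and day 1 overlapped in both constructs.

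Before induction 9530002B09Rik was not silent in every line. The WT line had 2, 2 and 4 counts at day 0, EV and FE255del had none, and R219S had 0, 2 and 0. The 8 WT counts put it at least 2.523-fold above EV, but the WT libraries with 2 counts lie under the floor of 3 counts in a library. From day 0 to day 1 the WT level was 6.561-fold higher (95% interval 3.115 to 15.9, counting error only).

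Tgm4, which encodes the prostate transglutaminase that crosslinks seminal proteins, was at a trace level in 35 of 36 libraries and at 0 in 1 FE255del library of day 11. It lies on chromosome 9 from 123034726 to 123067561. Counts at day 1 were 8, 10 and 2 in EV, 23, 5 and 9 in WT, 2, 18 and 6 in FE255del, and 11, 21 and 9 in R219S. The constructs overlapped at day 1 and again at day 11. At day 0 Tgm4 ran from 0.198 to 0.228 CPM in EV, 0.201 to 0.275 in WT, 0.0438 to 0.131 in FE255del and 0.106 to 0.188 in R219S. FE255del and R219S lay below EV there without overlap, at 3 to 18 counts a library. EV itself was lower after day 0 without overlap, from 0.0292 to 0.148 CPM at day 1 and 0.0556 to 0.181 at day 11, and WT ran from 0.0288 to 0.193 CPM at day 11, also below its day 0 libraries. Tgm4 overlaps the annotated gene Zdhhc3, which was at 173.2 CPM in EV at day 1, and without a known strand setting reads of the genes cannot be told apart.

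**Figure D3:**
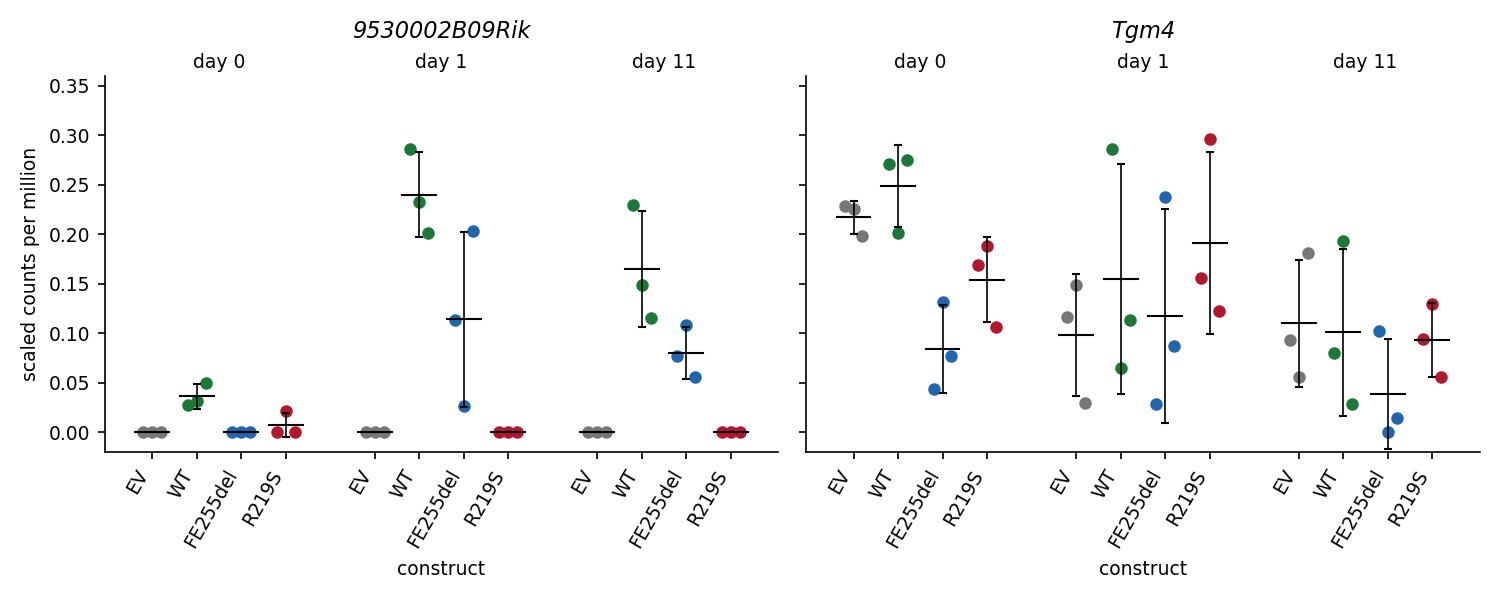
Level of 9530002B09Rik (left) and Tgm4 (right) in each library, in CPM on a linear axis, by construct and day. Points are libraries, and bars are the mean and SD of 3. The highest library of 9530002B09Rik is at 0.286 CPM in WT at day 1, with all EV libraries at 0, while Tgm4 overlaps between constructs at days 1 and 11.

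Pbsn, the probasin gene on chromosome X, and Msmb, the gene of beta-microseminoprotein on chromosome 14, had 0 counts in every library. A floor of 3 counts corresponds to 0.0313 to 0.0507 CPM in a single library and to 0.00114 CPM over all 36. No difference between constructs or days was detectable for either gene at this depth.

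The genes with the most similar pattern to Sbp over the 12 group means were found by the root mean square difference of centred log2 CPM. Its median over all genes tested was 5.4. Predicted genes (names with Gm and a number, or Rik), genes without a unique symbol and the listed members were then left out, leaving 14513 genes. Of all genes tested Sbpl was closest at 0.684, and the pair share the sequence described above. The 5 closest of the 14513 genes were Nptx1 (1.854), AU040972 (2.106), Kng1 (2.627), Nckap1l (2.653) and Sh3bgr (2.757). 9530002B09Rik lay at 4.403 and Tgm4 at 5.66. Nptx1, a neuronal pentraxin, was at 145.8 CPM in WT, 20.5 in FE255del, 9.46 in R219S and 0.0394 in EV at day 1. Sh3bgr was at 56.1 CPM in WT, 98.8 in FE255del and 0.181 in R219S. Kng1, which encodes kininogen, was highest in R219S, at 9.23 CPM beside 3.87 in WT and 2.09 in FE255del. Nckap1l, a component of the actin-regulating WAVE complex of blood cells, was at 15.7 CPM in WT, 2.87 in FE255del and 7.42 in R219S, with 0 counts in EV. None of the 5 had WT and FE255del at overlapping levels with R219S lower at day 1, as Sbp had.

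**Figure D4:**
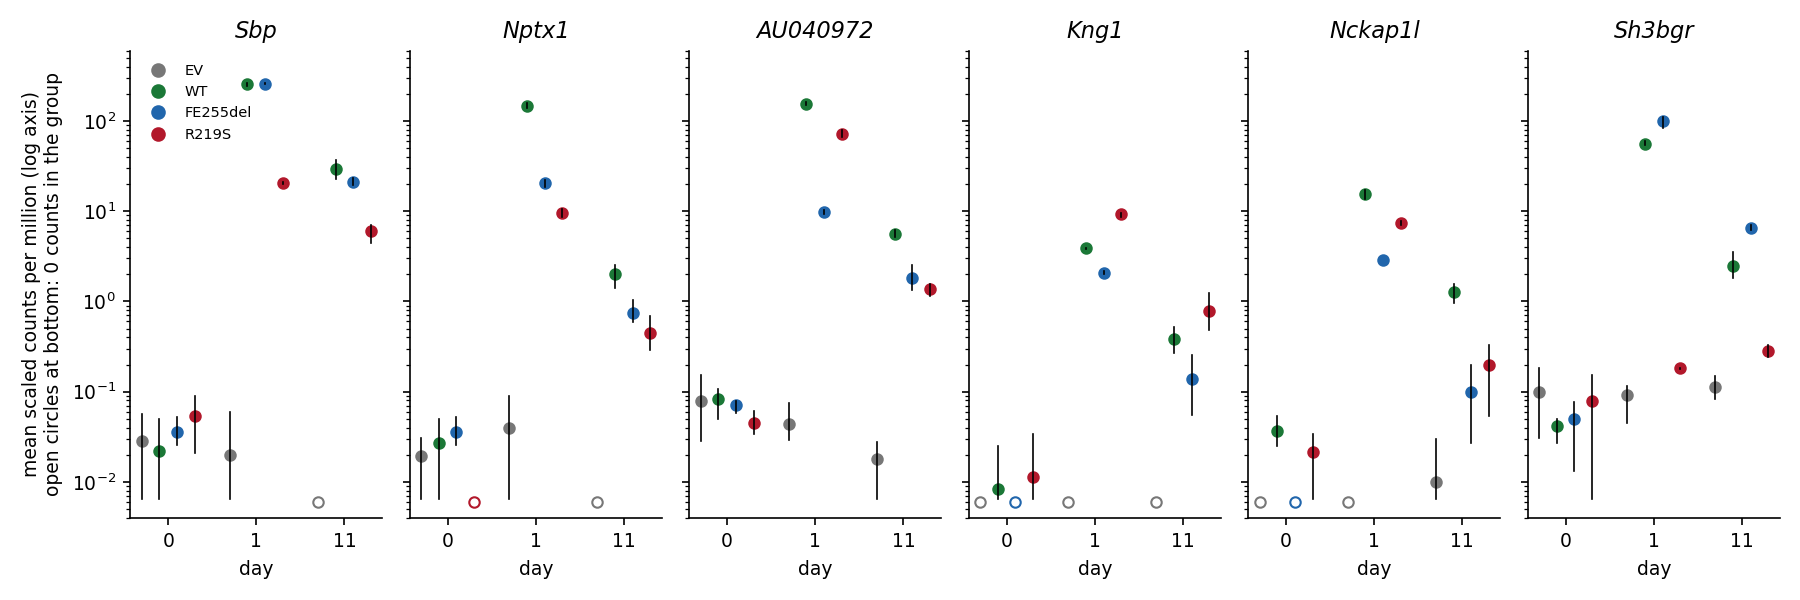
Mean level of Sbp and of the 5 genes outside the list with the most similar pattern, predicted genes left out, by day and construct, in CPM on a log axis. Points are means of 3 libraries, vertical lines run from the lowest to the highest library, and open circles at the bottom are groups with 0 counts. All are higher in WT at day 1 than at day 11, and of these 6 only Sbp has WT and FE255del together.

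Other genes listed as prostate secretory, some of which encode membrane proteins, did not follow Sbp as a group. Of 20 listed genes 17 were tested, and at day 1 against EV 4 rose and 7 fell in WT, with a median log2 fold change of -0.251 beside -0.0133 over all genes. In FE255del 5 rose and 6 fell (median -0.35), and in R219S 9 fell (median -0.992, or -0.751 with a gene at 0 counts set at its bound). No listed gene rose in R219S by edgeR's quasi-likelihood test with Benjamini-Hochberg adjustment, at an unadjusted p under 0.05 (0 genes higher) or by DESeq2 (0 higher). The share called was 64.7% in WT, 64.7% in FE255del and 52.9% in R219S, beside the 60.5%, 53.2% and 48.5% of all genes. With genes at low counts left out by a stricter filter, 5 of the list were called in WT, 4 in FE255del and 5 in R219S.

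Ltf, which encodes lactoferrin, fell at day 1 to 139.5 ± 11.0 CPM in WT, 92.5 ± 7.01 in FE255del and 375.9 ± 14.0 in R219S, from 556.8 ± 15.3 in EV (SD, n = 3; edgeR adjusted p 5.7e-18, 2.9e-20 and 2.5e-06). Trpv6, an epithelial calcium channel, fell by 3.83 (log2) in WT. Acpp, the prostatic acid phosphatase gene, fell by 0.66 in WT and 0.96 in FE255del (log2) and was at 97.9 CPM in R219S beside 97.6 in EV. Spink1, a secreted protease inhibitor, had 0 counts in EV and R219S, 218 in WT and 126 in FE255del at day 1, so that it was at least 62.7-fold higher in WT and at least 39.8-fold higher in FE255del. Pigr, the receptor that carries immunoglobulins into secretions, rose by 0.48 ± 0.14 (log2, SE) in WT and was at 10.1 CPM in R219S beside 104.7 in EV. Mme rose by 2.24 ± 0.43 and Ctse by 0.88 ± 0.25 in WT.

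At day 11 against EV, 6 of the 17 rose and 7 fell in WT, 8 rose and 5 fell in FE255del, and 2 rose and 11 fell in R219S. Of all genes, 40.6%, 42.2% and 32.1% were called in these comparisons, beside 76.5% of the list in each. From day 1 to day 11, when Sbp and Sbpl were lower in every construct, 12 of the 17 rose and 1 fell in WT, where 55.9% of all genes were called. In FE255del 12 rose and 2 fell (53.0% of all genes called), and in R219S 6 rose and 3 fell (58.5%).

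Seminal vesicle products other than Ceacam10 were almost absent. Of 11 such genes, 7 had 0 counts in every library, among them Svs3a, Svs4, Svs5 and Svs6, and Ceacam10 was the sole tested one. Ceacam10 rose at day 1 from 5.90 ± 0.357 CPM in EV to 414.2 ± 7.74 in WT and 240.9 ± 13.5 in FE255del (SD, n = 3; edgeR adjusted p 1.8e-28 and 2.9e-27), and fell to 2.05 ± 0.081 in R219S (1.1e-11). Before induction, at day 0, Ceacam10 was already at 12.9 CPM in the WT line and 12.3 in the FE255del line, beside 5.55 in EV (edgeR adjusted p 1.5e-10 and 1.3e-09). The R219S line was at 5.16 CPM (0.52). At day 11 Ceacam10 was at 25.6 ± 1.65 CPM in WT, 21.0 ± 1.99 in FE255del and 3.90 ± 0.666 in R219S, beside 12.4 ± 1.18 in EV. The levels of Sbp and Ceacam10 were thus both high in WT and FE255del at day 1 and lower at day 11, while in R219S Sbp was above EV and Ceacam10 below it.

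**Figure D5:**
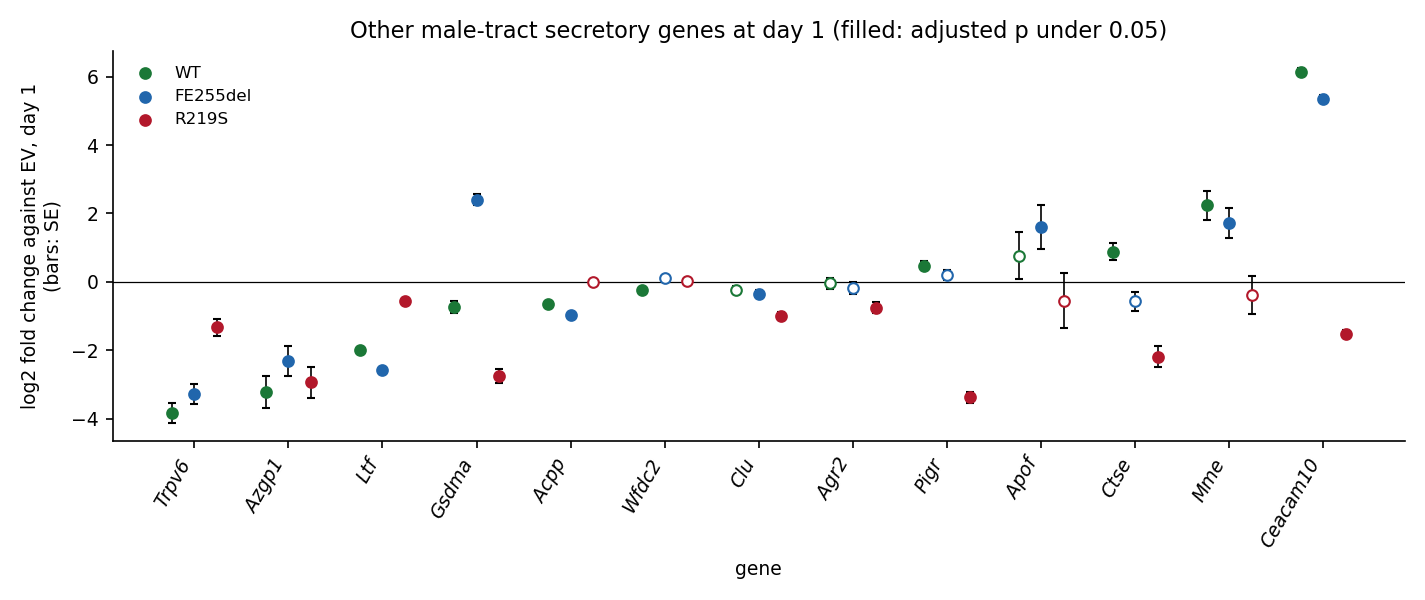
Log2 fold change against EV at day 1 of the tested secretory genes other than the 6, for WT, FE255del and R219S. Points are fitted values, bars are SE, filled points passed an adjusted p of 0.05, and genes with 3 counts or fewer in a compared group are not drawn. In R219S Ceacam10 lies at -1.52, beside 6.13 in WT and 5.35 in FE255del. Pigr in R219S lies at -3.37.

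Androgen response genes moved in both directions. Of 20 genes tested, 5 rose and 12 fell in WT at day 1, and 5 rose and 14 fell in both FE255del and R219S. The share called was 85% in WT and 95% in the other two, beside 60.5%, 53.2% and 48.5% of all genes, and the median log2 fold changes were -0.636, -0.518 and -0.423. Fkbp5, a cochaperone of steroid hormone receptors, fell in WT (log2 change -1.36) and FE255del (-1.35) but rose by 0.78 on the log2 scale in R219S. Tmprss2, a membrane protease, rose by 0.77 in WT and 0.97 in FE255del and fell by 0.96 in R219S on the same scale. Zbtb16 fell (log2 -2.56 in WT, -1.86 in FE255del, -1.83 in R219S), as did Map7d1 (-1.36, -0.74 and -0.48), and Homer2 rose (1.97, 2.11 and 1.37).

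Of 16 genes of the secretory pathway, through which such proteins leave the cell, 6 rose and 6 fell in WT, 4 rose and 8 fell in FE255del, and 4 rose and 7 fell in R219S at day 1. The share called was 75% in WT, 75% in FE255del and 68.8% in R219S, beside 60.5%, 53.2% and 48.5% of all genes, and the median log2 fold changes were 0.0149, -0.13 and -0.154 (-0.0133, -0.0262 and -0.0408 over all genes). With total-count scaling the split was 8 higher and 6 lower in WT, and 5 higher and 6 lower in both FE255del and R219S. Spdef, a transcription factor of secretory epithelia, rose by 5.92 ± 0.28 (log2, SE) in WT and 8.33 ± 0.27 in FE255del. In R219S Spdef was at 0.0514 CPM beside 0.0681 in EV (edgeR adjusted p 0.62). Kdelr3, which returns proteins to the endoplasmic reticulum, fell by log2 changes of -0.60, -0.76 and -0.58 across WT, FE255del and R219S. Sec61b, a subunit of the translocon, fell likewise (-0.60, -0.59 and -0.51). Spcs1, of the signal peptidase, rose by 0.46 in WT and 0.24 in R219S.

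Genes beside Sbp and Sbpl did not all change with them. Among the 3 nearest tested genes on each side of every member (30 genes), 8 rose and 12 fell in WT at day 1, or 66.7% beside 60.5% of all genes. In FE255del 9 rose and 10 fell (63.3%; 11 and 7 with total-count scaling), and in R219S 6 rose and 11 fell (56.7%). Those next to Sbp are the serine protease genes Prss33, Prss32 and Prss21 on one side, and Prss22, Prss27 and Kctd5 on the other, at 47.93 to 102.1 kb from the RefSeq limits of Sbp.

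Prss21, which encodes a testis-type serine protease, is 49.43 kb from Sbp and had 0 counts in EV and R219S at day 1. It had 77 counts in WT and 102 in FE255del, at least 22.1-fold and 32.2-fold above EV (edgeR adjusted p 5.5e-05 and 2.0e-05), but did not pass by DESeq2 (adjusted p 0.42 and 0.40). Prss22, at 47.93 kb on the other side, fell from 13.4 CPM in EV to 3.03 in WT and 5.38 in R219S. In FE255del Prss22 was at 11.3 CPM, a fall of 0.24 that did not pass with total-count scaling (adjusted p 0.14). Nor did it pass without EV replicate 3 (edgeR adjusted p 0.14) or without FE255del replicate 1 (0.057) or 3 (0.099). Prss27 fell in all 3 constructs (log2 -4.62, -3.31 and -3.60). Prss32 rose by 1.77 in FE255del and fell by 1.69 in R219S, and its WT value was -0.18 (edgeR adjusted p 0.47). Prss33 had 0 counts in WT at day 1 beside 21 in EV, at least 8.12-fold lower. Kctd5 rose by 0.15 in FE255del and 0.21 in R219S and was at 69.7 CPM in WT beside 70.0 in EV.

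Markers of other cell types were read beside the Sbp result. The seminal vesicle markers Svs3a, Svs4, Svs5 and Svs6 were at 0 counts in all groups. The summed immune markers ran from 56.5 to 73.3 CPM in WT and 45.2 to 52.9 in FE255del at day 1, beside 4.57 to 4.96 in EV and 1.95 to 2.43 in R219S. Csf1r alone gave 63.6 CPM of that in WT and 46.1 in FE255del, while the B-cell marker Ms4a1 was at 0. Cd68, a macrophage marker like Csf1r and the other tested marker of that list, fell by 1.44 (log2) in WT and 0.92 in FE255del, from 4.53 CPM in EV to 1.67 and 2.4 (edgeR adjusted p 1.2e-07 and 0.00013). The summed urothelial markers ran from 121.7 to 131.1 CPM in WT, 76.1 to 86.7 in FE255del, 5.72 to 6.38 in EV and 1.80 to 2.22 in R219S at day 1. Upk3a gave 71.0 CPM of that in WT and 62.9 in FE255del, and Upk1b 54.0 and 18.35. Upk1a did not pass in WT or FE255del (edgeR adjusted p 0.33 and 0.9). Upk2 fell in WT from 0.640 CPM in EV to 0.253 (edgeR adjusted p 0.00034) and did not pass in FE255del (0.21). At day 11 the urothelial sum stood at 801.3 CPM in WT and 1006 in FE255del, where Sbp was lower than at day 1. Upk3a alone gave 660.6 and 934.1 CPM of it. Upk1a rose to 9.33 and 7.95 CPM from 3.97 in EV, while Upk2 did not pass (edgeR adjusted p 0.93 and 0.1). Basal markers, given above, were lower in WT and FE255del than in EV at day 1. The luminal sum of that day, also given above, was highest in R219S, where Sbp was lower than in WT and FE255del. Proximal luminal markers summed to 1785 CPM in WT, 3005 in FE255del, 2100 in R219S and 4152 in EV at day 1. Stromal markers stayed at or under 6.38 CPM and neuroendocrine markers at or under 0.591 CPM in every library of that day. From day 1 to day 11 Sbp was lower in each FOXA1 construct. Over these days the stromal sum went from 2.95 to 29.7 CPM in WT and from 1.93 to 11.2 in FE255del. It went from 6.02 to 32.1 CPM in R219S and from 2.83 to 10.2 in EV. Acta2 alone gave 28.12 CPM of that in WT at day 11, 29.98 in R219S, 10.06 in FE255del and 8.701 in EV. In WT the stromal markers Col1a1, Pdgfra and Myh11 did not pass over these days (edgeR adjusted p 0.17, 0.86 and 0.18), while Col3a1 rose (0.0015). Col1a1 and Pdgfra rose in R219S (log2 1.476 and 1.192). The basal sum went from 3145 to 5617 CPM in WT, from 1829 to 5616 in FE255del, from 5361 to 12440 in R219S and from 8784 to 11020 in EV. The immune sum stood at 5.70 CPM in WT and 10.9 in FE255del at day 11. Their part in the Sbp result was not tested. In these bulk samples, fewer cells making Sbp and less Sbp RNA per cell cannot be told apart.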

How the data were processed

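RNA was sequenced from 36 organoid libraries, 3 for each of 12 groups of construct and day taken from the labels. The authors deposited 1 table of expected counts per gene and library. STAR 2.4.2a, featureCounts 1.4.3 and mm10 are named, without roles, in the submitters' processing notes, and the annotation release and strand setting are not given in the sources used here. Of the deposited values, 298311 were not written whole, none farther than 3.0e-09 from a whole number, and all were rounded. A symbol was found for 44585 identifiers. Low counts were mostly even (69.7% of those from 1 to 20), so both reads of a pair seem to be counted. Counting intervals and floors are then too narrow and bounds too high.

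Genes were filtered with filterByExpr, scaled by TMM (factors 0.938 to 1.08) and fitted with 1 model of 12 group means in edgeR 4.0.16 (R 4.3.3). This left 18176 genes. The quasi-likelihood F test, two-sided, was used for 16 comparisons, adjusted by Benjamini-Hochberg within each, with a threshold of 0.05. The procedure was tested on simulated data. Folds of the 6 genes are ratios of summed counts over summed scaled library sizes with 95% exact conditional intervals, or bounds with a group at 0 set to 3 counts. The intervals cover counting error only, not the spread between libraries. Log2 differences of the 6 genes compare mean log2 CPM over libraries, so they can differ from the log2 of the fold beside them. SE values of fitted fold changes are derived from the F statistic.

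Named are the 6 genes, Foxa1, the 4 genes of each list with the smallest p in WT against EV at day 1 and those that passed against the majority, the 3 nearest tested neighbours on each side, and the 5 genes closest to Sbp with predicted genes left out. Some of these are left out for brevity, and some are not reported here. The 6 genes and all lists were chosen with earlier results of these data known. Other settings tried were RLE and total-count scaling, no low-count filter and a stricter one, the compared groups only, a term for the replicate number, DESeq2 1.42.0, a prior count of 1 in place of the floor, and leaving out each library. Markers of luminal, basal, proximal luminal, seminal vesicle, urothelial, neuroendocrine, stromal and immune cells were summed per library.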

Additional observations from a re-analysis of the deposited data

Results flagged for a closer look

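For 5 genes on the secretory lists outside the 6, not all of them for secreted proteins, all libraries moved one way from day 1 to day 11 in some constructs and the opposite way in another. They were chosen after their values were seen, and the difference between constructs was not tested. Log2 changes from day 1 to day 11 are given. Ceacam10 was -4.01 in WT, -3.52 in FE255del and 0.93 in R219S. Agr2, a protein disulfide isomerase of secretory cells, was 0.49 in WT, 0.81 in FE255del and -0.71 in R219S. Mme, a membrane metallopeptidase, was 1.06 in WT, 4.10 in FE255del and -1.77 in R219S, where it stood at 0.0369 CPM at day 11. Wfdc2 was 0.61 in WT, 0.30 in FE255del and -0.38 in R219S. Gsdma was 1.37 in WT, -1.67 in FE255del and 1.04 in R219S.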

How the results depend on the processing

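The levels and ratios of Sbp, Sbpl, Tgm4 and 9530002B09Rik rest on sums of counts, and the group at 0 sets each bound. With a prior count of 1 in place of the floor, Sbp in WT against EV at day 11 was 12.65 (log2) beside 11.06. The stricter filter, which tests fewer genes, called 5 other prostate secretory genes in WT, 4 in FE255del and 5 in R219S at day 1, and 5, 6 and 6 at day 11. With the compared groups only, which leaves fewer samples for the spread, 3817 genes were called for R219S against EV at day 11 (5833 in the full model), 1706 for FE255del against WT at day 11 (3213), and 4 secretory pathway genes for R219S against EV at day 11 (8). Leaving out 1 library gave 2490 to 3486 calls for FE255del against EV at day 0 (3776 with all) and 2091 to 3512 for R219S (3654), lowest without EV replicate 2. Tgm4 in FE255del against WT at day 11 was -3.85 (log2) without FE255del replicate 1, beside -1.29. Total-count scaling moved the median of all genes from -0.0133 to 0.104 (log2) in WT against EV at day 1 and from -0.00792 to -0.102 in R219S against WT at day 11. With it 47.2% of the calls for R219S against EV at day 0 were higher, in place of 65.6%. No named gene that passed changed direction under the settings run. Of 639 ratios of the members recomputed, 27 had another sign, in 13 comparisons whose groups all overlapped, most of them of Tgm4. The shared replicate numbers do not pair the samples: same-numbered libraries correlated at -0.199 to 0.11, 0 of 16 comparisons had all pairs above 0.1, and 10 of 48 pairs correlated best with their own number. With the replicate number as a block, 11025 genes were called for WT against EV at day 1 (10994 without), no named gene lost or gained its call, and no count of a list moved by more than 1 gene. The depth limits 9530002B09Rik and Tgm4 to at most 23 counts a library.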
